A study of Mus musculus with 6 samples.

Results

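The genes described here are 10 claudins and epithelial junction genes, measured by RNA-seq in whole mouse fetuses: Cldn3, Cldn4, Cldn6, Cldn7, Epcam, Cdh1, Cdh3, Perp, Dsp and Sfn. They were chosen by name, with the difference between the groups already known, from a table of 17741 rows, and all 10 were in it. All 10 also passed the filter for testing, a mean of at least 1 FPKM (fragments per kilobase of transcript, scaled to the mapped fragments of the library) over the 6 libraries, as did 12141 rows in all. The differences between the groups are therefore given as a description of these genes and not as evidence about them.

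The study compared 3 wild-type (WT) fetus samples with 3 samples of the genotype KLF12 overexpression, taken at 9.0 days post coitum from C57BL/6 mice, in a study of neural tube defects under excess KLF12. KLF12 is a zinc-finger transcription factor of the Krüppel-like family that is known mainly as a repressor. The promoter or allele that drives it, the tissues that overexpress it, and whether a sample was 1 fetus or a pool are not given in the sources used here, so that p-values reflect only the variation among these 6 samples, some of which may be technical. Whole fetuses mix many cell types, and in such RNA fewer epithelial cells and less of an RNA per epithelial cell cannot be told apart.

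Epithelial cells are held together by a belt of junctions. Claudins are membrane proteins with 4 transmembrane segments that form the strands of tight junctions and set which ions and solutes pass between cells. Classical cadherins join neighbouring cells at adherens junctions through catenins, and desmosomes anchor keratin filaments at the membrane. In the embryo at neural tube closure these genes mark the surface ectoderm, whose edges are joined to the neural folds, and also the gut tube and the visceral endoderm of the yolk sac.

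The Klf12 gene itself was at 1.99, 2.11 and 1.32 FPKM in WT libraries 1, 2 and 3, and at 16.44, 15.15 and 23.94 FPKM in KLF12 libraries 1, 2 and 3. The groups did not overlap, in the direction of the labels, with a two-sided exact permutation p of 0.1, the smallest that 3 samples against 3 allow. Low values pointed to 16600000 to 18100000 fragments per library, a rough estimate. Correlations of log2(FPKM + 1) were 0.975 to 0.978 between WT libraries, while KLF12 library 3 correlated by 0.951 and 0.957 with the other KLF12 libraries, less than 0.972 between those, and by 0.955 to 0.959 with WT. Its deviation from the WT mean rose with transcript length, with a Spearman rho of 0.45 across 11651 genes, which are not independent replicates. The same value was 0.05 and -0.24 in KLF12 libraries 1 and 2. Results are therefore also given without library 3 and with this trend removed.

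In the KLF12 group 7 of the 10 genes lay below the range of WT in every library: Sfn, Cldn3, Perp, Cldn7, Dsp, Cldn4 and Epcam. Among all 12141 genes tested 8.98% did so. The mean FPKM of the KLF12 group ranged from 16.4% of WT for Sfn and 19.2% for Cldn3 to 93.2% for Cldn6. Cldn6, Cdh1 and Cdh3 overlapped between the groups. Differences were taken on the log2(FPKM + 1) scale, where those of weakly expressed genes are understated, and ran from -2.26 to -0.11, with a median of -0.66 against -0.02 for all genes tested. In a limma fit over all 12141 genes 3 of the 10 (Sfn, Cldn3 and Perp) had a Benjamini-Hochberg adjusted p under 0.05 with lower values, and 0.634% of all genes did. Because the genes were picked with this contrast known, nothing is read from these counts.

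**Figure D1:**
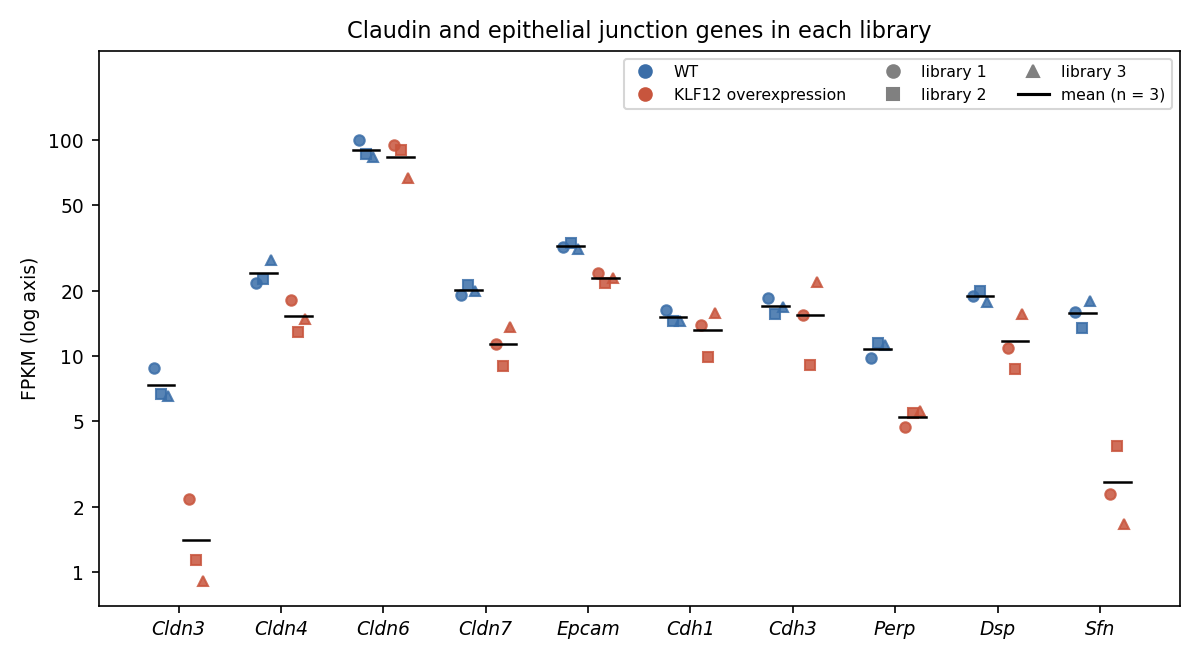
FPKM on a log axis for each of the 10 genes, with 1 point per library (blue WT, red KLF12 overexpression, marker shape by library number) and a black bar at the mean of 3. The KLF12 points of Sfn, Cldn3, Perp, Cldn7, Dsp, Cldn4 and Epcam lie below the WT points, while those of Cldn6, Cdh1 and Cdh3 overlap with WT.

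Among the claudins, Cldn3 (NCBI gene 12739) differed most. Claudin-3 is a sealing claudin that tightens the barrier between epithelial cells. Its level was 8.79, 6.71 and 6.57 FPKM in WT libraries 1, 2 and 3, and 2.19, 1.14 and 0.91 FPKM in KLF12 libraries 1, 2 and 3. All KLF12 libraries were low, and the highest of them was at less than any WT value. The means were 7.36 ± 1.24 and 1.41 ± 0.682 FPKM (SD, n = 3 each), a log2 difference of -1.82 ± 0.25 (SE). By the depth estimate the lowest value stands for about 17 fragments. Cldn3 kept the limma call without KLF12 library 3, at -1.67, and lost it without any 1 of the WT libraries. It had 5.16 ± 0.61% of the summed FPKM of the 4 claudins in WT and 1.23 ± 0.436% in the KLF12 group.

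Cldn4 (NCBI gene 12740) is the neighbour of Cldn3 on chromosome 5, with 0 protein-coding genes between them in the RefSeq table of GRCm38.p6. Claudin-4 is also a sealing claudin. It was at 21.92, 22.89 and 27.93 FPKM in WT libraries 1, 2 and 3 and at 18.19, 12.97 and 14.93 FPKM in KLF12 libraries 1, 2 and 3. The groups did not overlap, but the difference was smaller than for Cldn3, -0.63 ± 0.17 (SE) on the log2 scale, and was not called. The ratio of Cldn4 to Cldn3, which no scaling of a library can move, was 2.49, 3.41 and 4.25 in the WT libraries and 8.31, 11.4 and 16.4 in the KLF12 libraries. The neighbouring genes thus differed unequally, in the same direction.

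Cldn7 (NCBI gene 53624), a claudin of the basolateral membrane as well as of tight junctions, was at 19.28, 21.5 and 19.97 FPKM in WT libraries 1, 2 and 3 and at 11.44, 8.99 and 13.68 FPKM in KLF12 libraries 1, 2 and 3. All KLF12 values were below all WT values, with a log2 difference of -0.80 ± 0.17 (SE). Cldn7 was not called over all 6 libraries but was without KLF12 library 3, at -0.93. Epcam (NCBI gene 17075) encodes an epithelial adhesion molecule that binds claudin-7 and keeps it from being degraded. Its values were 31.98, 33.46 and 31.5 FPKM in WT and 24.27, 21.89 and 23.04 FPKM in the KLF12 libraries. Epcam had the least spread of the 10 genes in either group, a coefficient of variation of 3.16% in WT and 5.16% in KLF12, and a log2 difference of -0.47 ± 0.12 (SE), not called.

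Cldn6 (NCBI gene 54419) is a claudin of embryonic epithelia that is largely switched off after birth. It was the most abundant of the 10 genes in every library, at 100, 86.83 and 83.82 FPKM in WT libraries 1, 2 and 3 and at 94.94, 90.04 and 67.15 FPKM in KLF12 libraries 1, 2 and 3. KLF12 libraries 1 and 2 lay within the WT range and library 3 below it. Its log2 difference was -0.11 ± 0.15 (SE), and 0.04 without library 3. Cldn6 made up 63.4 ± 3.06% of the summed FPKM of the 4 claudins in WT and 74.6 ± 5.06% in the KLF12 group (SD, n = 3 each), and the libraries of the groups did not overlap in this share, with 66.7% as the highest in WT and 69.5% as the lowest in KLF12.

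The windows of 250 bases before the annotated start of 4 of these genes are shown because the genes differed together but by unequal amounts, with Cldn3 and Sfn at the large end and Cldn4 and Epcam at the small end of the 7 genes whose groups did not overlap. Cldn7, Dsp and Perp, also among the 7, are not shown. Cldn7 has 2 windows, the window of Dsp overlaps an annotated exon, and Perp has no entry. The sequences are from RefSeq on GRCm38.p6, written 5′ to 3′ on the strand of the gene, and 7 of the 10 genes had an entry in that table. The windows are chr5:134985964-134986213 (+) for Cldn3, chr5:134946935-134947184 (-) for Cldn4, chr4:133602169-133602418 (-) for Sfn and chr17:87635729-87635978 (+) for Epcam, and none overlaps an annotated exon. Capitals mark CACCC, the core of sites bound by Krüppel-like factors, and CAGGTG, an E-box bound by Snail and Zeb repressors, on either strand (GGGTG and CACCTG).
Cldn3: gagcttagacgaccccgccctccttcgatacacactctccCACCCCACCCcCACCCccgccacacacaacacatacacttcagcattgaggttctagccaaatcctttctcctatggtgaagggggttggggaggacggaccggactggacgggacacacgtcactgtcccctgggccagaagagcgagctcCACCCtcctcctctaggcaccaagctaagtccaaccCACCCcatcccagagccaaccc
Cldn4: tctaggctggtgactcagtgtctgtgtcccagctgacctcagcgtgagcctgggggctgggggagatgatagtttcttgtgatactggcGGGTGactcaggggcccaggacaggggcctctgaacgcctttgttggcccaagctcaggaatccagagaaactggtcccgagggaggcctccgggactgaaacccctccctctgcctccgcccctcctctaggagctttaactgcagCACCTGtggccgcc
Sfn: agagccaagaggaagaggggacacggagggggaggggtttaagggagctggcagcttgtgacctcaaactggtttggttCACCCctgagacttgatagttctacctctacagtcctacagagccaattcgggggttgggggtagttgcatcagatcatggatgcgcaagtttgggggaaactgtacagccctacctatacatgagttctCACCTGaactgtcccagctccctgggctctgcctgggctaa
Epcam: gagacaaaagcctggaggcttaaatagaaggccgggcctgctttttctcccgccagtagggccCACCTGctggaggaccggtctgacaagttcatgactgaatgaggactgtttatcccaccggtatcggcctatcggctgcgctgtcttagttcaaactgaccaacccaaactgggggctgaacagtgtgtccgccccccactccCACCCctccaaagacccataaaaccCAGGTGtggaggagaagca
The Cldn3 window held 5 matches to CACCC, some of them in 1 run of cytosine-rich sequence, and none to CAGGTG. Those of Cldn4, Sfn and Epcam each held 1 match to CACCC, and 1, 1 and 2 matches to CAGGTG. Among the windows not shown, those of Dsp and Cldn6, which overlap annotated exons, held 0 matches to CACCC, and 0 and 1 to CAGGTG. The 2 windows of Cldn7 held 1 and 0 matches to CACCC, and 0 and 2 to CAGGTG. Of all 32851 promoter windows of this length 52.0% had a match to CACCC, 0.667% had at least 5, and 17.2% had a match to CAGGTG. The GC box GGGCGG, in 32.7% of all windows, matched once each in the windows of Cldn3, Cldn4 and Epcam and not in that of Sfn. The letters AACNNGTT, the core of grainyhead sites, in 3.64% of all windows, matched once, in Sfn. The motifs were searched on both strands, and matches to different motifs can share bases at their ends. A match is a description of these letters only.

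Of the cadherins, Cdh1 (NCBI gene 12550) encodes E-cadherin, the main adhesion molecule of epithelial adherens junctions. It was at 16.4, 14.59 and 14.52 FPKM in WT libraries 1, 2 and 3 and at 13.93, 9.88 and 15.87 FPKM in KLF12 libraries 1, 2 and 3. KLF12 library 2 was low, library 1 just under WT and library 3 within the WT range. Cdh3 (NCBI gene 12560), for P-cadherin, is adjacent to Cdh1 on chromosome 8, with 0 protein-coding genes between them. It was at 18.67, 15.63 and 16.84 FPKM in WT and at 15.54, 9.13 and 22.14 FPKM in the KLF12 libraries, so that library 2 was the lowest and library 3 the highest of all 6. The ratio of Cdh1 to Cdh3 was 0.891 ± 0.0373 in WT and 0.898 ± 0.183 in KLF12 (SD, n = 3 each). Log2 differences were -0.21 ± 0.19 (SE) for Cdh1 and -0.20 ± 0.27 for Cdh3, within the spread of the KLF12 libraries. The sign for Cdh3 turned without KLF12 library 2, to 0.12.

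At desmosomes, Dsp (NCBI gene 109620) encodes desmoplakin, which links the desmosomal plaque to keratin filaments. It was at 19.09, 19.99 and 17.75 FPKM in WT libraries 1, 2 and 3 and at 10.87, 8.72 and 15.63 FPKM in KLF12 libraries 1, 2 and 3. All KLF12 values were below WT, with library 3 nearest to it. The log2 difference was -0.68 ± 0.20 (SE), not called over 6 libraries but called at -0.89 without library 3 and at -0.73 with the length trend removed. Perp (NCBI gene 64058), a membrane protein that desmosomes need for adhesion and a target of p53 and p63, was at 9.79, 11.51 and 11.24 FPKM in WT and at 4.71, 5.44 and 5.57 FPKM in the KLF12 libraries. The KLF12 libraries were close to each other, near 48.3% of the WT mean, and the log2 difference was -0.92 ± 0.16 (SE). Of the fits that left out 1 library, Perp was called only in the one without KLF12 library 3.

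Sfn (NCBI gene 55948) encodes 14-3-3 sigma, an epithelial adaptor protein needed for epidermal differentiation and a target of p53. It was at 16.08, 13.57 and 17.94 FPKM in WT libraries 1, 2 and 3 and at 2.31, 3.83 and 1.68 FPKM in KLF12 libraries 1, 2 and 3. Every KLF12 value was far below every WT value, with means of 15.9 ± 2.19 and 2.61 ± 1.11 FPKM (SD, n = 3 each) and a log2 difference of -2.26 ± 0.24 (SE). It was the only one of the 10 genes called in each of the 14 alternative fits. The other 14-3-3 genes are expressed in most tissues and served as its family background: by limma 0 of 6 were called, with 1 lower at an unadjusted p under 0.05 (6.32% of all genes were), and their log2 differences ranged from -0.48 for Ywhah to -0.07 for Ywhaq, with a median of -0.20.

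**Figure D2:**
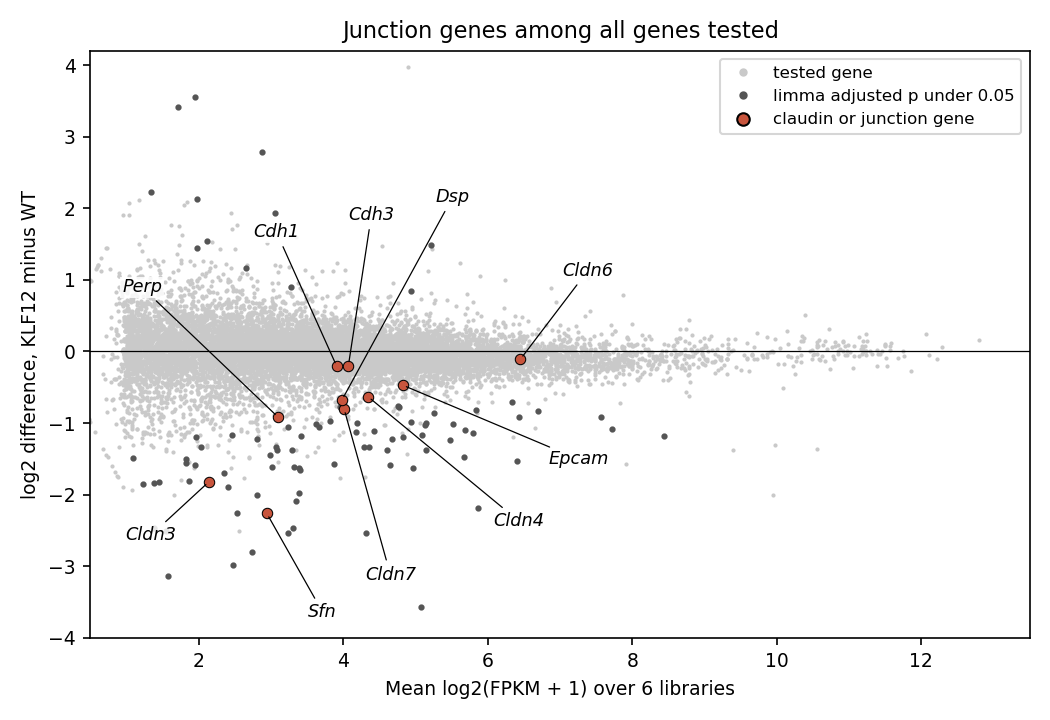
The log2 difference, KLF12 minus WT, of each of 12141 tested genes (grey) against its mean log2(FPKM + 1), with genes at a limma adjusted p under 0.05 in dark grey and the 10 junction genes in red. The red points lie at or below 0, from -0.11 for Cldn6 to -2.26 for Sfn.

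In WT the 10 genes ran in level from Cldn6 through Epcam, Cldn4, Cldn7, Dsp, Cdh3, Sfn, Cdh1 and Perp to Cldn3. From Cldn7 down to Cdh1 the WT ranges of neighbours in this order overlapped, between 20.2 and 15.2 FPKM on average, and the other neighbours did not overlap. In the KLF12 group Sfn and Cldn3, at 2.61 and 1.41 FPKM, lay below the other 8, whose means were 5.24 FPKM or more. The spread of log2 values was larger in KLF12 than in WT for 9 of the 10, Perp being the exception, and for 71.8% of all genes tested.

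The KLF12 libraries did not order the genes in 1 way. Library 2 was the lowest of the KLF12 libraries for 6 genes (Cldn4, Cldn7, Epcam, Cdh1, Cdh3 and Dsp), library 3 for Cldn3, Cldn6 and Sfn, and library 1 for Perp. The 3 genes with the longest transcripts, Dsp at 9592 bases, Cdh1 at 4430 and Cdh3 at 4384, were highest in library 3 among the KLF12 libraries, as were Cldn7 and Perp. The other 7 transcripts were 1259 to 2040 bases, below the median of 3143 for tested genes. With each library's length trend removed, the differences of Sfn, Cldn3 and Perp were -2.20, -1.73 and -0.88, close to those above, and 4 of the 10 genes were called, Dsp being the fourth, where 1.06% of all genes were called lower. Without KLF12 library 3, 5 of the 10 were called (Sfn, Cldn3, Perp, Cldn7 and Dsp), where 1.95% of all genes were. Without any 1 of the WT libraries only Sfn was called, and without KLF12 library 1 or 2 Sfn and Cldn3 were.

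**Figure D3:**
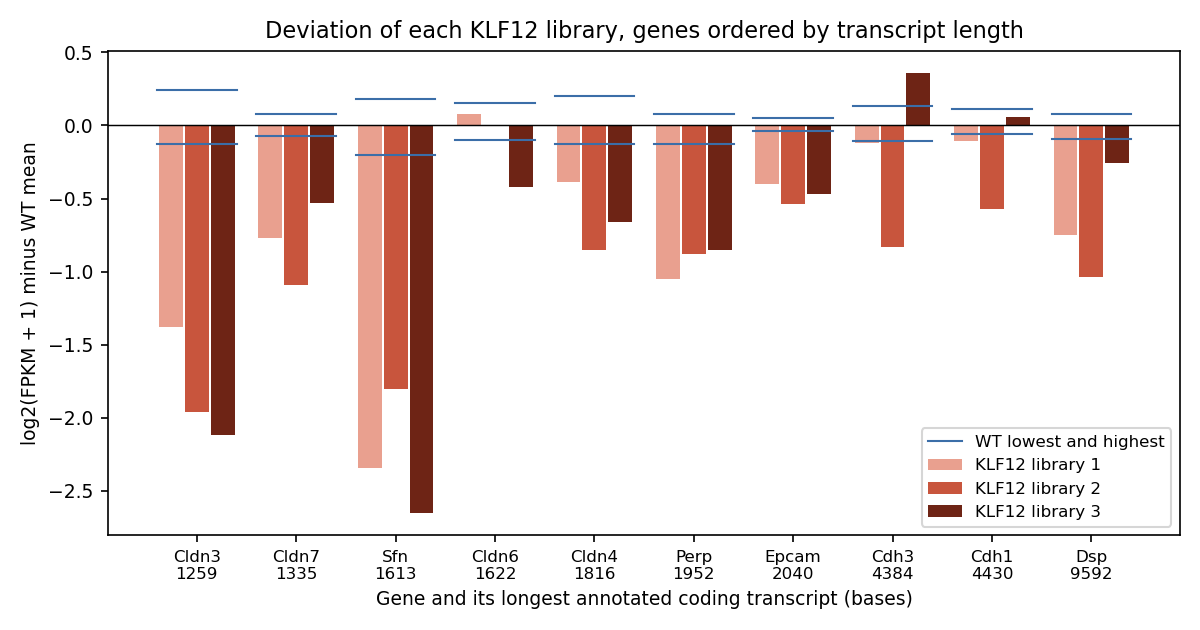
Deviation of each KLF12 library from the WT mean in log2(FPKM + 1) (bars, shaded by library), with genes ordered by their longest coding transcript in GENCODE M21 and blue lines at the lowest and highest WT library. Bars of Cldn3 and Sfn reach -2.12 and -2.65, while for Cdh3 and Cdh1 the bar of library 3 lies above 0.

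The other genes of these junctions were read from lists, by structure. Of 77 further junction genes listed 71 were in the table and 54 were tested, of which 2 fell and 0 rose by limma, beside 0.634% and 0.0988% of all genes. At an unadjusted p under 0.05 the counts were 11 lower and 4 higher, where 6.32% of all genes were lower and 4.57% higher at that p. Of the 54, 27 had negative and 27 positive values, with a median of -0.00, and 52.7% of all genes were negative. Both genes that fell belong to desmosomes and their keratin linkers. Jup, for plakoglobin, which joins desmosomal and classical cadherins to the cytoskeleton, was at 19.97, 16.48 and 20.16 FPKM in WT and at 9.08, 8.22 and 10.04 FPKM in the KLF12 libraries, a log2 difference of -0.97 ± 0.16 (SE) with a limma adjusted p of 0.0292. Ppl, for periplakin, a plakin like desmoplakin, was at 4.63, 6.24 and 5.71 FPKM in WT and at 2.05, 1.0 and 1.78 FPKM in the KLF12 libraries, a log2 difference of -1.34 ± 0.24 with an adjusted p of 0.0453. Without KLF12 library 3 the genes that fell included Jup, Ppl, Plec and Cldn9. Both calls over 6 libraries were lost without any 1 of the WT libraries and without KLF12 library 1 or 2, and over the alternatives adjusted p ranged from 0.0134 to 0.189 for Jup and from 0.0134 to 0.231 for Ppl.

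The 11 tested desmosome and plakin genes had 9 negative values and a median of -0.43, where 52.7% of all genes were negative. At an unadjusted p under 0.05, 5 were lower and 0 higher, beside 6.32% and 4.57% of all genes. Pkp3, for the plaque protein plakophilin-3, and Evpl, for envoplakin, the partner of periplakin in the cornified envelope, were not called at 2.56 ± 0.43 and 0.64 ± 0.246 FPKM, and at 1.62 ± 0.172 and 0.38 ± 0.215 FPKM, in WT and KLF12. Their KLF12 libraries all lay below WT, as did those of 8.98% of all genes tested. Plec, for the plakin plectin, was at 1.83 and 1.27 FPKM in KLF12 libraries 1 and 2 but at 6.69 in library 3, against 5.27 to 6.49 in WT, and its longest transcript has 15455 bases. It was called without library 3, at -1.45 with a limma adjusted p of 0.0178. The desmosomal cadherins Dsg2 and Dsc2 overlapped between the groups.

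Of 20 other claudins listed, 14 were in the table and 8 were tested. Of the 8, 6 overlapped between the groups, as did 10092 of all 12141 genes tested. By limma 0 of the 8 were called. At an unadjusted p under 0.05, 1 was lower and 2 were higher, beside 6.32% and 4.57% of all genes. Values were positive for 7 of the 8, where 52.7% of all genes were negative. Cldn9, adjacent to Cldn6 on chromosome 17, was the exception, at 4.8 ± 0.656 FPKM in WT and 1.98 ± 0.441 in KLF12, with no overlap and a limma adjusted p of 0.101 (0.0448 without KLF12 library 3). Cldn10 had the next smallest p and overlapped, at 0.08 to 1.48 and 1.4 to 4.21 FPKM. Cldn12 was the other gene without overlap, higher in KLF12 at 19.6 ± 1.26 FPKM against 15.1 ± 2.56 in WT (limma adjusted p = 0.446). Cldn5, the claudin of endothelial tight junctions, averaged 24.9 ± 4.94 FPKM over the WT and 26.8 ± 3.12 FPKM over the KLF12 libraries.

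Among 19 tight junction partners 0 were called by limma, with 4 lower and 1 higher at an unadjusted p under 0.05 (6.32% and 4.57% of all genes) and a median of -0.05. Tjp3, for the scaffold protein ZO-3 of epithelial tight junctions, was at 5.01 ± 1.19 FPKM in WT and 2.42 ± 0.23 in KLF12 (limma adjusted p = 0.182), and Lsr, for a receptor of junctions where 3 cells meet, at 32.8 ± 3.53 and 22.9 ± 3.7 FPKM (adjusted p = 0.254). Tjp1, for the widely expressed scaffold ZO-1, was at 37.9 ± 2.46 and 36.9 ± 8.01 FPKM. The 11 adherens junction partners had 0 limma calls, 1 lower at an unadjusted p under 0.05, and a median of 0.01. Ctnna1, for the alpha-catenin that ties cadherins to actin, was at 130 ± 1.48 and 104 ± 8.16 FPKM (limma adjusted p = 0.333). Nectin3, for an adhesion molecule of the immunoglobulin superfamily, was at 24.8 ± 3.54 and 32.5 ± 9.43 FPKM (adjusted p = 0.63). Of 5 other classical cadherins 0 were called by limma, with 1 higher at an unadjusted p under 0.05. Cdh6 was at 3.59 ± 0.546 and 6.92 ± 2.6 FPKM (limma adjusted p = 0.301) and Cdh11 at 24.1 ± 4.41 and 27.1 ± 2.05 (adjusted p = 0.776). Cdh2, for the N-cadherin of neural tube and mesoderm, overlapped between the groups, at 22.16 to 27.61 and 21.14 to 43.54 FPKM (limma adjusted p = 0.84). Cdh1 overlapped too. The ratio of Cdh2 to Cdh1 was 1.53 to 1.84 in WT and 1.98 to 2.74 in the KLF12 libraries.

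**Figure D4:**
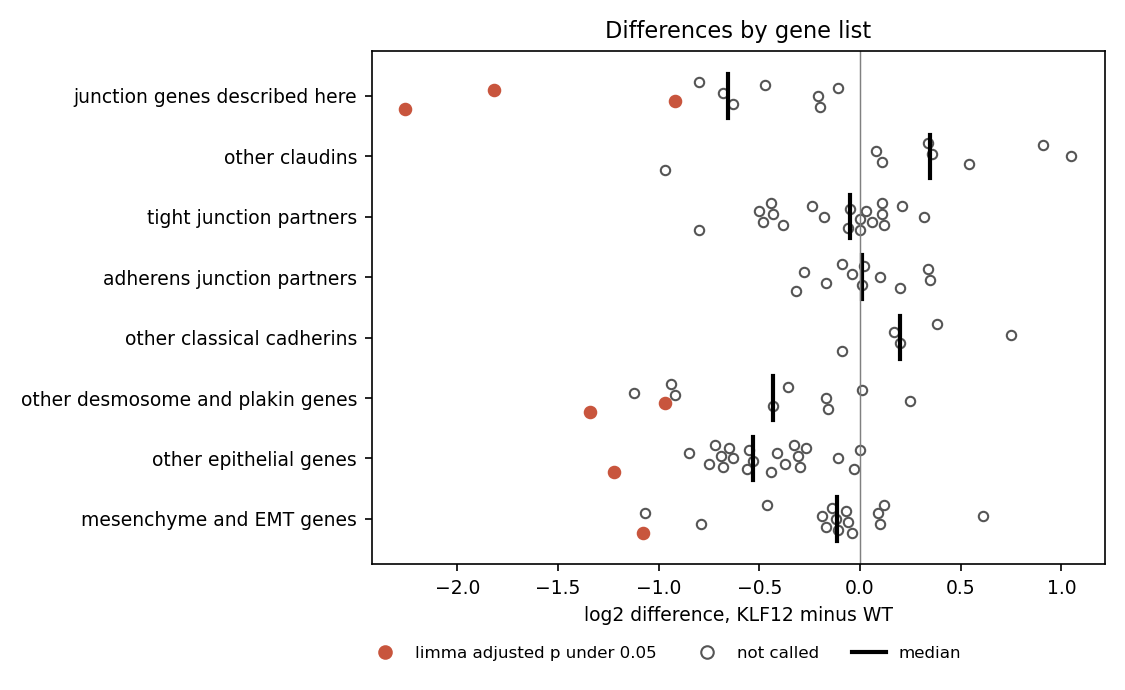
Log2 differences, KLF12 minus WT, of the tested genes of each list (open circles not called, red points called by limma at an adjusted p under 0.05), with a bar at the median of the list. Medians are -0.66 for the 10 genes described, -0.43 for other desmosome and plakin genes and -0.53 for other epithelial genes, and near or above 0 for the remaining junction lists.

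Epithelial genes outside the junctions had mostly negative values too. Of 25 listed 21 were tested, and 20 were negative (52.7% of all genes were), with a median of -0.53. By limma 1 fell, beside 0.634% of all genes. Without KLF12 library 3 the number was 2, Krt7 and Spint2, where 1.95% of all genes fell. Krt7, a keratin of simple epithelia, was at 40.15, 33.72 and 40.42 FPKM in WT and at 18.33, 15.41 and 13.9 FPKM in the KLF12 libraries, a log2 difference of -1.22 ± 0.15 (SE) with a limma adjusted p of 0.00907, and 0.00582 to 0.0855 over the alternatives. It was not called without WT library 1, nor without WT library 3. Earlier results on these data held many of these genes, so that this list is not independent evidence of a direction.

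Markers of tissues with such epithelia were summed in each library, and the sums of the groups did not overlap for surface ectoderm and gut endoderm, in opposite directions, but did for yolk sac endoderm. The 12 surface ectoderm and epidermis markers, of which 9 were tested and 0 called by limma, had 9 negative values, 3 of them at an unadjusted p under 0.05, where 52.7% of all genes tested were negative and 6.32% lower at that p. Their summed FPKM was 44.5 to 50.8 in WT and 23.8 to 37.3 in KLF12, lowest in KLF12 library 2. Krt5, a keratin of basal epidermal cells, was at 4.55 ± 2.35 and 1.71 ± 0.256 FPKM (limma adjusted p = 0.264), and Trp63, the p63 transcription factor of the epidermal lineage, at 5.04 ± 0.496 and 2.95 ± 0.901 FPKM (adjusted p = 0.331). The 12 gut endoderm markers, 10 of them tested, summed to 78.0 to 105 FPKM in WT and 118 to 153 FPKM in KLF12. They had 9 positive values, 6 higher and 1 lower at an unadjusted p under 0.05, and 1 called higher, Trh (limma adjusted p = 0.039). Of all genes tested 4.57% were higher and 6.32% lower at that unadjusted p, and 0.0988% were called higher. Trh lost the call without any 1 of the WT libraries and without KLF12 library 1 or 2, with adjusted p from 0.00973 to 0.157 over the alternatives. The 12 yolk sac and visceral endoderm markers, with 0 called by limma and 5 higher at an unadjusted p under 0.05 (4.57% of all genes were), summed to 69.6 to 398 FPKM in WT and 301 to 440 FPKM in KLF12. No marker of these 3 lists was at 0 in every library. The surface ectoderm sum was 79.9%, 50.8% and 76.6% of its WT mean in KLF12 libraries 1, 2 and 3. The part of tissue makeup in the results was not tested.

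**Figure D5:**
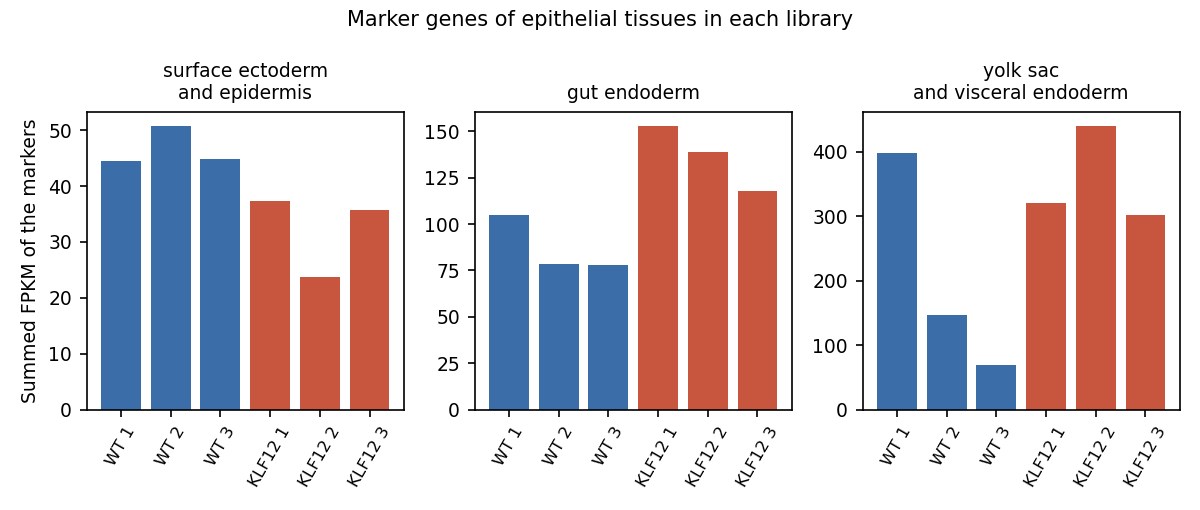
Summed FPKM of the marker genes of surface ectoderm, gut endoderm and yolk sac endoderm in each library (bars from 0, blue WT and red KLF12, each panel with its own scale). Surface ectoderm sums are lower in all KLF12 libraries than in WT, gut endoderm sums are higher in all of them, and the yolk sac sum of WT library 1 lies within the KLF12 range.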

How the data were processed

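RNA was extracted with Trizol from 9.0 dpc fetuses, per the labels' protocols. The authors deposited 1 table of FPKM values with 2 decimals and a column for each of the 6 samples. The build mm9 and the tools CASAVA, HISAT2 (2.0.4) and RSEM (1.2.8) are named, without role or order, per the submitters' processing notes. Of 17741 rows 16874 had a symbol in the RefSeq table of GRCm38.p6, which served for names and gene order only. Promoter sequences and their coordinates are on that later build.

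The values are not counts, so no count test was run. Values were analysed as log2(FPKM + 1) with limma 3.58.1 in R 4.3.3, with a variance trend, for rows averaging 1 FPKM or more, and called at a Benjamini-Hochberg adjusted p under 0.05. The fit was tested on simulated data. Depth was estimated from the step that 1 fragment makes in low FPKM values times the longest coding transcript of GENCODE M21, less 150 bases, and whole fragments were not recovered.

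The genes, the lists and the tests were chosen with earlier results of these data known. The rule named each of the 10 genes, Klf12, up to 4 called genes per list or else the 2 with the smallest p, and paralogs. Plec, Pkp3, Evpl, Tjp1 and the genes called without KLF12 library 3 were named after their values were seen. Some genes that these rules would name are not reported here. Alternatives covered the pseudocount (0.1), filters (none, or a mean of at least 5), scaling, the variance model, a replicate block and each replicate left out. Removal of the length trend was added after seeing the data.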

Additional observations from a re-analysis of the deposited data

How the results depend on the processing

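Klf12 kept direction and call in each of the 14 alternatives, with a log2 difference of 2.59 to 3.28. Of the 10 junction genes 8 kept a negative value in each alternative that tested them. With each replicate left out Cldn6 ranged from -0.21 to 0.04, positive without KLF12 library 3, and Cdh3 from -0.48 to 0.12, positive without KLF12 library 2, neither called by limma. Calls did not hold: besides Sfn, Cldn3 was called in 9 of 13 alternatives, Perp in 5 of 14, Dsp in 2 and Cldn7 in 1. The cause was not tested.

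With each replicate left out, 17 to 326 of all genes were called (15 to 236 lower, 2 to 90 higher), 1 to 5 of the 10 genes, 0 to 5 further junction genes and 0 to 2 epithelial genes. Jup and Ppl were both lost without any 1 of the WT libraries and without KLF12 library 1 or 2. Without a filter 29 genes were called (25 lower, 4 higher), with 1 of the 10 genes and 0 further junction genes, and as TPM 51 (46 lower, 5 higher), with 0 further junction genes. When only genes averaging 5 FPKM or more were tested, Cldn3 and Ppl were not among them. Of the 10 genes 1 was then called, Sfn, with 1 further junction gene and 6 higher genes among all tested. A pseudocount of 0.1 left 1 further junction gene. With the length trend removed 151 genes were called (123 lower, 28 higher). More or fewer genes tested, or fewer samples, belong to these settings by construction.

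Replicate numbers did not pair the libraries: deviations of same-numbered ones correlated by 0.027, -0.107 and 0.036. With the replicate block 64 genes were called, 2 of the 10 genes (Sfn and Cldn3, not Perp) and 0 further junction genes. At an estimated 17 fragments in the lowest library, Cldn3 is the one of the 10 genes that depth limits most, and Cldn10 had an estimated 3 fragments in its lowest library.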

Other observations

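Genes of mesenchyme and of the epithelial to mesenchymal transition were mostly not called. Of 16 tested, 1 fell by limma (0.634% of all genes did), and the median was -0.11. Values were negative for 12, where 52.7% of all genes were negative. At an unadjusted p under 0.05, 4 were lower and 1 higher, beside 6.32% and 4.57% of all genes. The gene that fell was Vim, for the intermediate filament vimentin, at 293.44, 306.83 and 312.81 FPKM in WT and 160.63, 161.6 and 114.39 FPKM in the KLF12 libraries (log2 difference -1.08 ± 0.15 SE, limma adjusted p = 0.0158, from 0.00197 to 0.127 over the alternatives). The call was lost without any 1 of the WT libraries. The list holds transcription factors that can repress epithelial genes. Of these, Snai1, Snai2, Zeb1 and Twist2 overlapped between the groups, and Zeb2 and Twist1 did not, with none called. Of all 12141 genes tested, 1090 lay lower and 959 higher in KLF12 without overlap. Zeb2 was higher in every KLF12 library than in WT, at 9.78 ± 0.771 against 6.03 ± 0.355 FPKM (log2 difference 0.61 ± 0.16 SE, limma adjusted p = 0.161), and was the 1 gene of the list higher at an unadjusted p under 0.05. Twist1 was lower, at 76.1 ± 7.38 against 86.9 ± 3.0 FPKM (adjusted p = 0.626). Snai1 averaged 22.4 ± 0.435 FPKM over the WT and 21.1 ± 4.41 FPKM over the KLF12 libraries. These genes were named after their values were seen.

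Perp and Sfn are known p53 targets. Of 12 other p53 target genes tested 0 were called by limma, where 0.634% of all genes were called lower. At an unadjusted p under 0.05, 1 was lower, beside 6.32% of all genes. Values were negative for 7, where 52.7% of all genes were negative, with a median of -0.07. The inhibitor of the cell cycle Cdkn1a was at 5.94 ± 2.21 and 3.11 ± 0.936 FPKM (limma adjusted p = 0.391), and Bbc3, which promotes apoptosis, at 6.53 ± 0.856 and 4.71 ± 0.408 FPKM (adjusted p = 0.468).

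Markers of 3 other cell groups had 0 limma calls. Of them 1, a germ cell marker, was higher at an unadjusted p under 0.05, as were 4.57% of all genes. Summed FPKM in WT and KLF12 was 17.4 to 18.8 and 13.7 to 23.4 for nephric duct and otic epithelium. It was 10.2 to 11.2 and 11.5 to 13.1 for primordial germ cells, without overlap, and 86.9 to 96.1 and 75.6 to 126 for trophoblast. Hand1, also a heart and mesoderm gene, made up most of the trophoblast sum.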
